A study of Mus musculus with 10 samples.

Results

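The genes of DNA replication and S phase were followed in 10 mouse tumors driven by 2 forms of YAP1. The set holds 39 of the 16895 genes listed for every tumor and was chosen by gene name. It covers origin licensing and helicase loading (10 genes), helicase activation (5), polymerases and primase (5), the sliding clamp, its loader and fork maintenance (8), nucleotide supply (3), chromatin copying (3), and E2F factors with S phase cyclins (5). All 39 symbols were present, and all 39 passed the filter on low values, so no member was lost. The lowest deposited value of a member was 2, for MCM10 in YAP1-MAML2-v2 replicate 5 and for E2F2 in YAP1-MAML2-v2 replicate 1.

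Tumors arose in Nestin/tv-a mice that were Cdkn2a null, so every tumor, of either group, lacked that tumor suppressor. The tv-a receptor, under Nestin control, limits infection to cells that express it. Chicken DF1 cells that made an RCAS virus were placed under the arachnoid of pups aged 0 to 3 days. The label "cell type: DF1" therefore names the cells that carried the virus and not the tumor. The virus encoded YAP1-MAML2-v2, a fusion of YAP1 with the Notch coactivator MAML2 (n = 7), or NLS-2SA-YAP1, which the series title describes as constitutively active YAP1 (n = 3). By the labelled region, the YAP1-MAML2-v2 tumors comprised 4 extra cranial (replicates 1, 3, 4 and 5), 2 extra axial (2 and 6) and 1 intra ventricular tumor (7). Of the NLS-2SA-YAP1 tumors, replicate 1 was extra axial, and replicates 2 and 3 were extra cranial. Age at collection is not stated in the labels, and no normal tissue or uninfected mouse was analysed here. Nothing in the labels says that the samples came from separate animals, so p-values measure the spread between these samples. YAP1-MAML2-v2 replicates 6 and 7 carry the same number in their deposited names, and whether they are tumors of 1 mouse is not stated, so the 7 tumors of that construct may come from fewer mice.

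CDKN2A itself was listed at 0.197 to 18.2 CPM in the YAP1-MAML2-v2 tumors and, in the NLS-2SA-YAP1 tumors, at 6.15, 1.37 and 1.21 CPM, where CPM is a gene's value scaled to the TMM-adjusted library total. The labels do not say which exons the null allele lacks, so these values check nothing. Totals of the deposited values ran from 28001143 to 44544314 per library. They are sums of values treated here as estimated counts, and the sequencing depth is unknown. The 14 meningeal fibroblast and arachnoid markers summed to 5740 to 27600 CPM, and none of them was at 0 or 1 in every library.

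Before a cell copies its DNA, the origin recognition complex, CDC6 and CDT1 load the MCM2 to MCM7 ring onto origins. CDC45 and the GINS complex then turn the ring into an active helicase, and polymerases, the PCNA clamp and its RFC loader build the new strands. Most of these genes are transcribed at the passage from G1 to S phase by E2F factors, which RB1 restrains until cyclin-dependent kinases release them. In a tumor, their messages therefore mark cells that are in or near S phase.

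Since E2F factors are known regulators of many of these genes, the promoters were searched for E2F-type letter runs. They are shown for the members whose matches lie upstream of the RefSeq start and outside the exons of the GENCODE M21 annotation. For CDC6 and UHRF1 that annotation has transcripts that begin further upstream, so their stretches lie in introns of those transcripts and upstream of a later start. Windows of 250 bases before to 50 bases after the start came from RefSeq on GRCm38.p6, the assembly also called mm10. A window was found for 32 of the 39 members. They were searched on both strands for TTTCCCGC, TTTGGCGC, TTTCGCGC and TTTGCCGC. TTTCGCGC and TTTGGCGC can overlap when they lie on opposite strands, as in MCM5. A match was found in 14 of 32 members (43.75%), in 4.45% of the tested genes that have a window, and in 2.6% of all genes of the promoter table. TTTCCCGC occurred in 6 members, TTTGGCGC in 6, TTTCGCGC in 7 and TTTGCCGC in 0. Each stretch below runs 5′ to 3′ on the strand of its gene, and capitals mark the matches.
CDC6, origin licensing, chr11:98907983-98908050, plus strand: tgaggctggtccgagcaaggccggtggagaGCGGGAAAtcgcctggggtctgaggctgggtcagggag
MCM5, helicase ring, chr8:75109326-75109397, plus strand: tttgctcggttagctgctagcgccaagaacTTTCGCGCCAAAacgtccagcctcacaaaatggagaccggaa
MCM6, helicase ring, chr1:128359715-128359845, minus strand: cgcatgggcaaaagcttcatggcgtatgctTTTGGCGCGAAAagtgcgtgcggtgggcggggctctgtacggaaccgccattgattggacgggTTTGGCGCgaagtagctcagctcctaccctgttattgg
POLA1, polymerase alpha, chrX:93632256-93632323, minus strand: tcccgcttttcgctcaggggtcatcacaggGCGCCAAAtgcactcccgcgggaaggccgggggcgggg
UHRF1, maintenance of DNA methylation, chr17:56304098-56304165, plus strand: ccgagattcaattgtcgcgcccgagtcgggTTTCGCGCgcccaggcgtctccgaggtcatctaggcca

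The other matches lie in CDT1, E2F2, GINS3, LIG1, MCM3, MCM7, ORC1, POLD1 and RFC3. Of the 59 other replication genes on a second list, 46 had a window and 16 of these (34.78%) had a match. By contrast, 1 of 17 G2 and mitosis genes (5.88%) had one. CCAAT, on either strand, was found in 20 of 32 members (62.5%), in 15 of 17 G2 and mitosis genes (88.24%) and in 41.96% of the tested genes. These are letter matches in a window and describe no binding in these tumors.

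Most of the 39 genes were high in the same tumor and low in the same few tumors. The extra axial tumor YAP1-MAML2-v2 replicate 2 had the highest CPM of the 10 libraries for 34 of 39 members (87.2%). Over all 13707 genes tested it was the highest library for 13.0%. The exceptions were TYMS, RRM2, RFC4 and E2F1, 4 members highest in NLS-2SA-YAP1 replicate 2 (6.14% of all genes were), and E2F2, highest in YAP1-MAML2-v2 replicate 3 (7.04% of all genes were). At the low end, YAP1-MAML2-v2 replicate 5 was lowest for 19 members, against 11.5% of all genes tested. The intra ventricular tumor, YAP1-MAML2-v2 replicate 7, was lowest for 15, against 17.8%. In bulk samples, fewer replicating cells and less message per cell cannot be told apart.

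**Figure D1:**
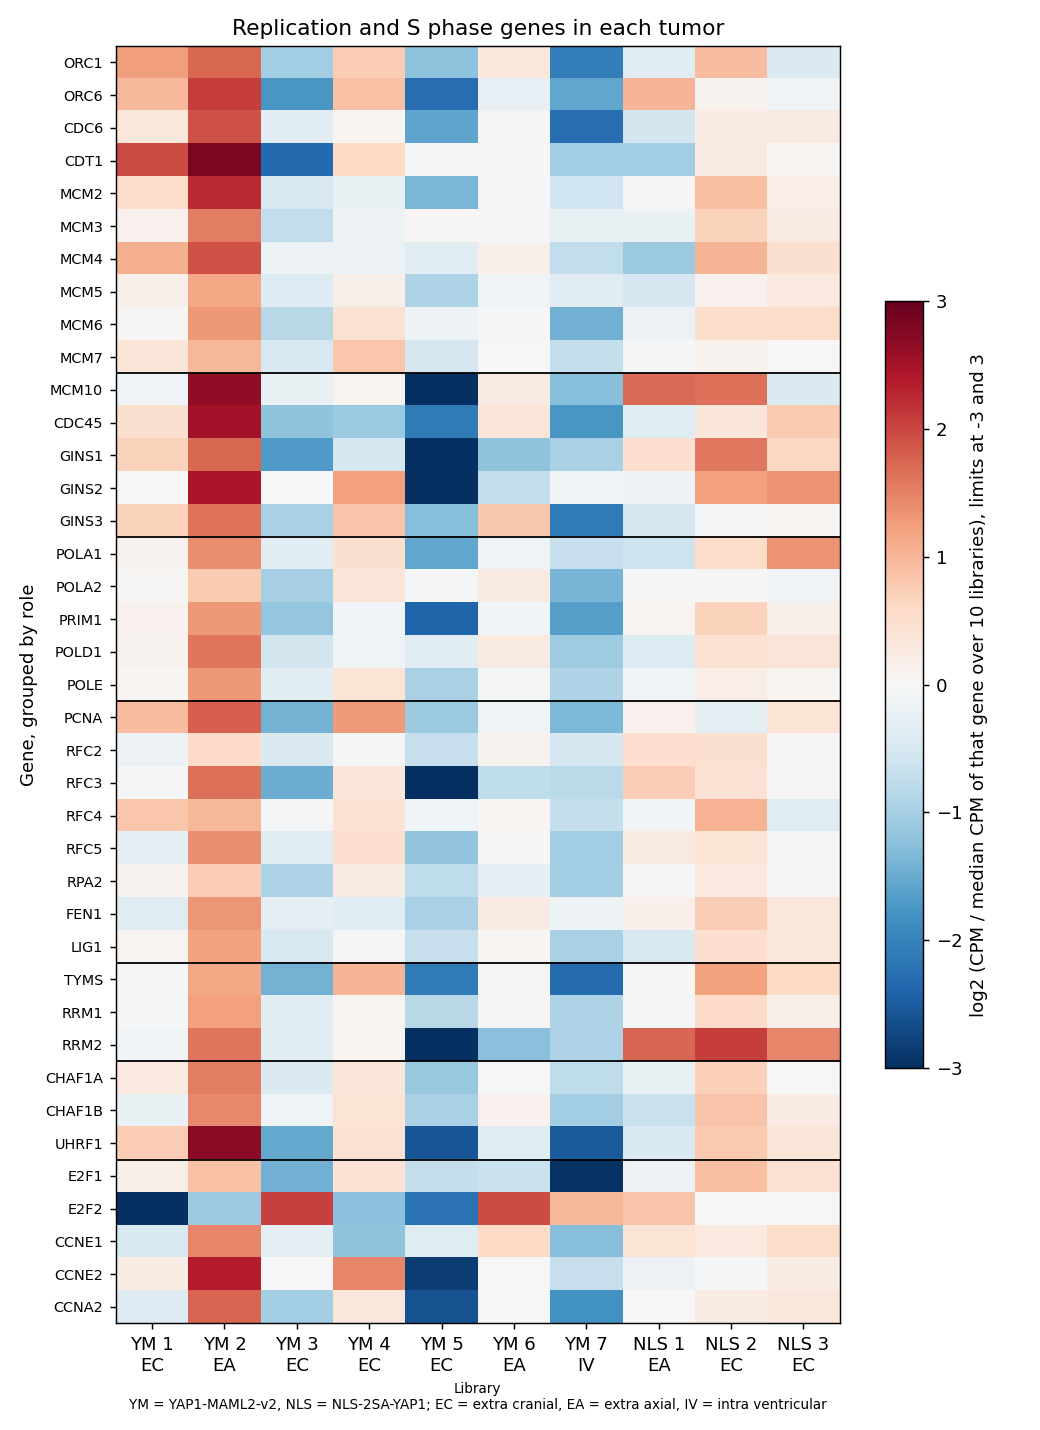
Colors show, for each of the 39 genes (rows, grouped by role) in each of the 10 libraries (columns), the log2 ratio of its CPM to the median CPM of that gene over the libraries, with the scale limited at -3 and 3. The column of YAP1-MAML2-v2 replicate 2 is highest in 34 rows, those of replicates 5 and 7 are mostly blue, and the E2F2 row breaks the pattern.

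The median log2 CPM over the 39 genes placed the libraries in order. It was 4.75 in YAP1-MAML2-v2 replicate 2, 4.14 in NLS-2SA-YAP1 replicate 2, and 3.62 in both NLS-2SA-YAP1 replicate 3 and YAP1-MAML2-v2 replicate 4. The middle of the order was held by NLS-2SA-YAP1 replicate 1 at 3.52, YAP1-MAML2-v2 replicate 6 at 3.43 and YAP1-MAML2-v2 replicate 1 at 3.36. The lowest were YAP1-MAML2-v2 replicate 3 at 3.0, replicate 7 at 2.53 and replicate 5 at 2.30. The 3 NLS-2SA-YAP1 tumors thus lay within the range of the 7 YAP1-MAML2-v2 tumors, at ranks 2, 3 and 5. Group means of this median were 3.28 ± 0.81 (SD, n = 7) for YAP1-MAML2-v2 and 3.76 ± 0.33 (SD, n = 3) for NLS-2SA-YAP1. By region they were 3.34 ± 0.63 (SD, n = 6) for extra cranial and 3.90 ± 0.74 (SD, n = 3) for extra axial tumors.

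Genes of G2 and mitosis, 20 genes on a list of their own, were highest and lowest in the libraries at the ends of this order. Their summed CPM was 881 in YAP1-MAML2-v2 replicate 2, 24.5 in replicate 5 and 42.3 in replicate 7, and 126 to 284 in the other libraries. The spread of the members' sum was narrower, from 365 CPM in YAP1-MAML2-v2 replicate 7 to 1780 CPM in replicate 2. Markers of macrophages and microglia were highest in YAP1-MAML2-v2 replicates 5 and 7, at the low end of the order, but not in replicate 3. Of that list, 9 of 10 genes are in the files, and their sum was 2430 CPM in YAP1-MAML2-v2 replicate 5 and 2230 CPM in replicate 7. It was 1760 CPM in replicate 1 and 614 to 1140 CPM in the other 7 libraries, with 651 CPM in replicate 2 and 814 CPM in replicate 3. The lymphocyte sum was lowest in YAP1-MAML2-v2 replicate 2, at 28.9 CPM, and ran up to 435 CPM in replicate 6. The part of immune cells in the order of the tumors was not tested.

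**Figure D2:**
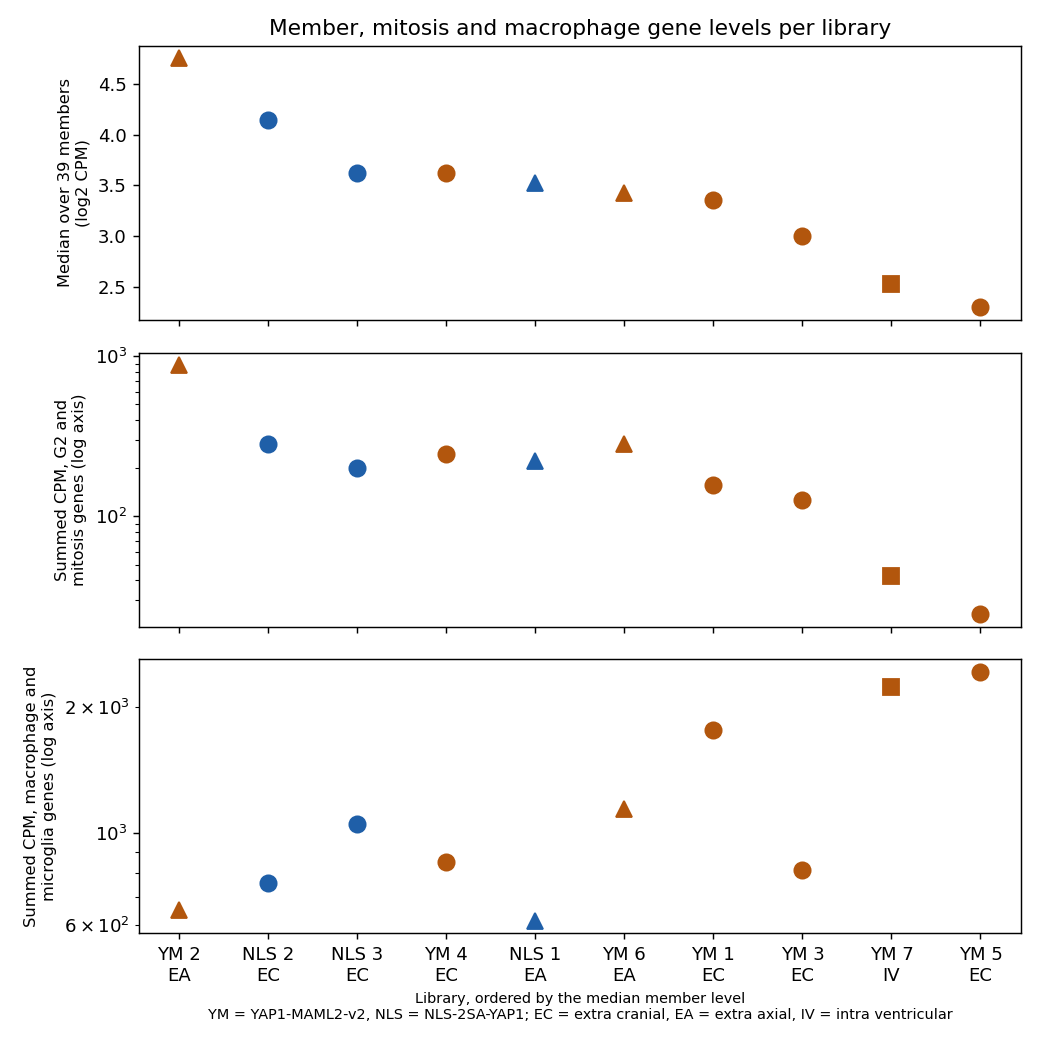
Libraries are ordered from left to right by the median log2 CPM of the 39 genes (top), with the summed CPM of 20 G2 and mitosis genes (middle, log axis) and of 9 macrophage and microglia genes (bottom, log axis) below. YAP1-MAML2-v2 replicate 2 is highest in the upper panels, while replicates 5 and 7 are lowest there and highest in the bottom panel.

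Among the licensing genes, all 10 were highest in YAP1-MAML2-v2 replicate 2. CDT1, the loading factor that geminin inhibits, was at 12.6 CPM there, had a median of 1.71 CPM over the 7 YAP1-MAML2-v2 tumors and was as low as 0.354 CPM in replicate 3. In the NLS-2SA-YAP1 tumors it was at 0.862, 2.12 and 1.83 CPM. CDC6, the ATPase that helps load the ring, ran from 1.04 through a median of 4.83 to 19.0 CPM in the YAP1-MAML2-v2 tumors and was at 3.45, 5.91 and 6.11 CPM in the others. ORC1, a subunit of the origin recognition complex, was scarce throughout, at 0.260 to 3.59 CPM. For these 3 genes the NLS-2SA-YAP1 values lay inside the YAP1-MAML2-v2 range.

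MCM2 was at 58.6 CPM in YAP1-MAML2-v2 replicate 2 and at 4.81 to 17.9 CPM in the 6 other tumors of that construct. The NLS-2SA-YAP1 tumors were at 12.7, 23.3 and 14.2 CPM. MCM4 was at 126 CPM in replicate 2 and at 69.4 CPM in replicate 1, with the others of that construct at 20.1 to 37.3 CPM. In the NLS-2SA-YAP1 tumors MCM4 was at 15.5 CPM in the extra axial one, the lowest of all 10 libraries, and at 67.6 and 46.8 CPM in the extra cranial pair. MCM7 varied least of the ring, from 37.5 to 123 CPM, a ratio of 3.27. Its exons overlap AP4M1 and COPS6 on the other strand and the microRNAs MIR25 and MIR93 on its own. In all, 14 members have an exon that overlaps another gene, and whether the counting used strand is not stated.

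The ring holds 1 copy of each of its 6 subunits, but their messages were not equal per length. Of the summed CPM per kb of principal transcript over MCM2 to MCM7, MCM7 made up a median of 28.6% over the 10 libraries, MCM3 25.9%, MCM6 16.3%, MCM4 15.2%, MCM5 8.65% and MCM2 5.38%. The MCM2 share ran from 2.56% in YAP1-MAML2-v2 replicate 5 to 9.16% in replicate 2, the libraries with the lowest and the highest median member level. The MCM4 share was lowest in NLS-2SA-YAP1 replicate 1, at 7.38%, and next in YAP1-MAML2-v2 replicate 4, at 9.31%, while it reached 21.5% in YAP1-MAML2-v2 replicate 1. MCM2 had the lowest share in every library except YAP1-MAML2-v2 replicate 2, where MCM5 was lowest at 8.15%, and either MCM7 or MCM3 had the highest.

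**Figure D3:**
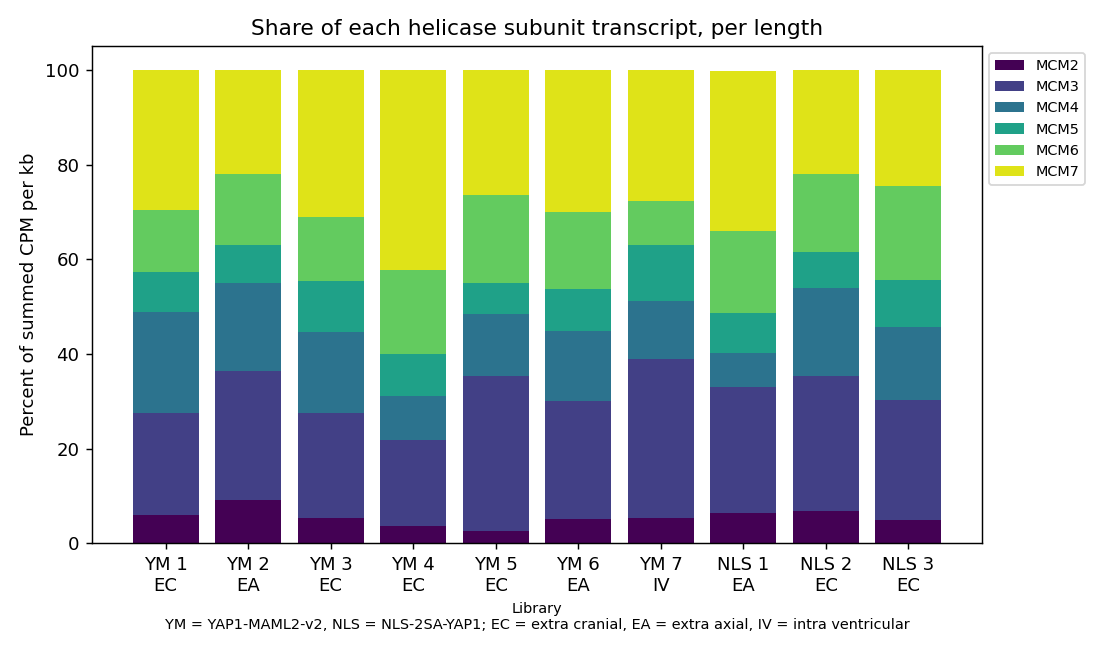
Stacked bars give, for each library, the percent of the summed CPM per kb of the 6 helicase ring genes that each subunit contributed. MCM2 is the thin bottom band, between 2.56% and 9.16%, and MCM7 the top band, between 21.9% and 42.1%.

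The helicase activation genes varied most of the roles. The ratio of the highest to the lowest library had a median of 27.7 over these 5 genes, against 9.21 over all 39 and 4.74 over the clamp and fork maintenance genes. These ratios are larger where the lowest value is near the bottom of the scale. MCM10, which helps start the unwinding, was at 8.28 CPM in YAP1-MAML2-v2 replicate 2 and at 0.066 CPM in replicate 5, a ratio of 126 that rests on a deposited value of 2. CDC45 was at 9.07 CPM in replicate 2 and at 0.363 to 2.20 CPM in the other YAP1-MAML2-v2 tumors, with 1.24, 2.02 and 2.71 CPM in the NLS-2SA-YAP1 tumors. GINS2 ran from 0.264 CPM in replicate 5 through a median of 2.20 to 12.1 CPM in the YAP1-MAML2-v2 tumors while the NLS-2SA-YAP1 tumors had 1.99, 5.19 and 5.63 CPM. GINS1, another subunit of that complex, was at 16.4 CPM in YAP1-MAML2-v2 replicate 2 with 7.04, 14.8 and 7.61 CPM for the NLS-2SA-YAP1 tumors.

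Polymerase and primase genes were all highest in YAP1-MAML2-v2 replicate 2, by a median factor of 2.59 over the median of the other 9 libraries. POLA1, the catalytic subunit of polymerase alpha, was at 65.0 CPM there and nearly as high, at 63.0 CPM, in NLS-2SA-YAP1 replicate 3. The other NLS-2SA-YAP1 tumors were at 16 and 36.5 CPM, and the YAP1-MAML2-v2 median was 22.8 CPM with a low of 8.44 CPM in replicate 5. POLE, the catalytic subunit of the leading strand polymerase, ran from 28.4 to 138 CPM, and POLD1, that of polymerase delta, from 7.15 to 45.6 CPM.

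Of the clamp and fork genes, PCNA had the highest level per length of all 39 members, with a median of 33.5 CPM per kb. It was at 175 CPM in YAP1-MAML2-v2 replicate 2, 123 CPM in replicate 4 and 95.8 CPM in replicate 1, and at 19.0 to 46.3 CPM in the other 4 tumors of that construct. The NLS-2SA-YAP1 tumors were at 55.5, 41.2 and 67.8 CPM, inside the range of the others. RFC2, a clamp loader subunit, was the steadiest member, from 10.8 to 25.9 CPM, a ratio of 2.39. RFC3, of the same complex, ran from 1.15 to 31.3 CPM, a ratio of 27.1. LIG1, which seals Okazaki fragments, ran from 13.4 to 60.7 CPM, and FEN1, which trims them, from 6.60 to 32.5 CPM.

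Ribonucleotide reductase makes the deoxynucleotides for replication from a large subunit, RRM1, and a small subunit that in S phase is RRM2. RRM1 ran from 26.5 through a median of 49.1 to 119 CPM in the YAP1-MAML2-v2 tumors and the NLS-2SA-YAP1 tumors, with 49.4, 75.1 and 55.7 CPM, lay inside that range. RRM2 read 18.8, 23.5 and 15.5 CPM over the NLS-2SA-YAP1 tumors. In the YAP1-MAML2-v2 tumors it was at 17.1 CPM in replicate 2 and at 0.462 to 5.93 CPM in the other 6, with a median of 4.38 CPM. Only replicate 2 overlapped the other group. The ratio of RRM1 to RRM2 in CPM was 2.62, 3.20 and 3.59 in the NLS-2SA-YAP1 tumors and 6.97 to 61.4 in the YAP1-MAML2-v2 tumors, with no overlap. This ratio was singled out after its values were seen and was not tested. No share over other gene pairs is given beside it. The highest ratio, in YAP1-MAML2-v2 replicate 5, rests on a deposited RRM2 value of 14. The same balance, put per length, gave RRM2 33.7% to 41% of the sum of both in the NLS-2SA-YAP1 tumors and 2.88% to 20.7% in the YAP1-MAML2-v2 tumors. TYMS, which makes thymidylate, read 22.5, 50.2 and 32.9 CPM over the NLS-2SA-YAP1 tumors and ran from 4.38 through 20.9 to 48.9 CPM in the others.

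**Figure D4:**
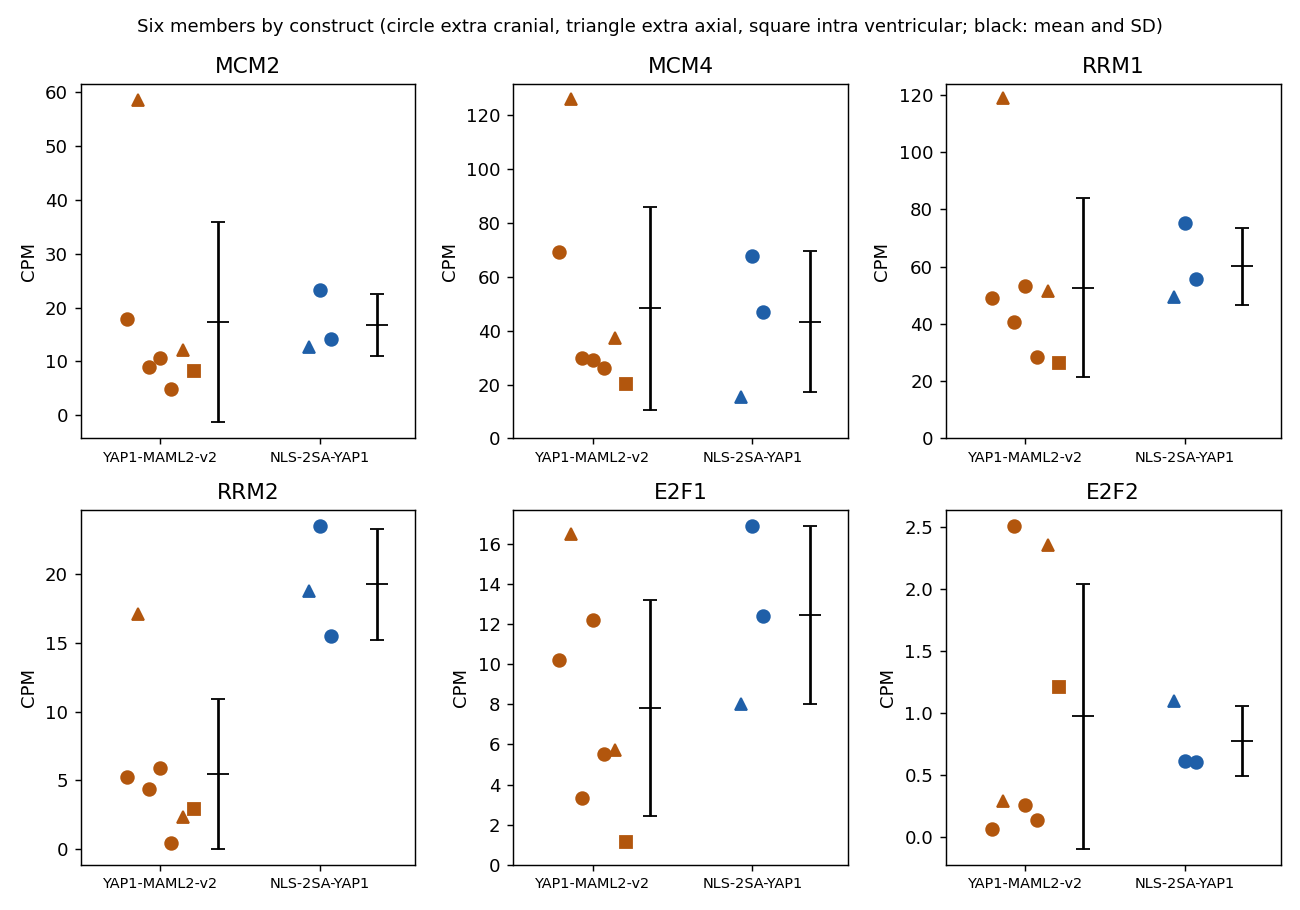
Each panel plots the CPM of 1 gene in every library by construct (circles extra cranial, triangles extra axial, square intra ventricular), with the mean and SD in black (n = 7 and n = 3). RRM2 is at 15.5 CPM or more in all NLS-2SA-YAP1 tumors and reaches that level in 1 YAP1-MAML2-v2 tumor, while MCM2, MCM4, RRM1, E2F1 and E2F2 overlap.

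Chromatin copying genes showed the same high tumor. UHRF1, which brings the maintenance methyltransferase to new DNA, was at 26.9 CPM in YAP1-MAML2-v2 replicate 2, 8.46 times the median of the other 9 libraries and the largest such factor of the 39 genes. The other tumors of that construct were at 0.693 to 6.99 CPM, and the NLS-2SA-YAP1 tumors at 2.97, 7.04 and 5.30 CPM. CHAF1A and CHAF1B, subunits of the chaperone that deposits histones behind the fork, were at 2.90 and 2.98 times the median of the other libraries.

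The E2F factors did not move as a pair. E2F1 was at 1.16 through a median of 5.73 to 16.5 CPM in the YAP1-MAML2-v2 tumors and read 8.02, 16.9 and 12.4 CPM over the NLS-2SA-YAP1 tumors. E2F2 was at 2.51, 2.36 and 1.21 CPM in YAP1-MAML2-v2 replicates 3, 6 and 7 and at 0.0595 to 0.288 CPM in replicates 1, 2, 4 and 5. It was thus low in the tumor where 34 of the members were highest, at 0.469 times the median of the other libraries. The NLS-2SA-YAP1 tumors were at 1.10, 0.615 and 0.603 CPM. Its level rests on low deposited values, down to 2. Cyclins E1 and E2, which activate CDK2 at the start of S phase, also differed in balance. The ratio of CCNE1 to CCNE2 in CPM was 2.24, 1.88 and 1.86 in the NLS-2SA-YAP1 tumors and ran from 0.235 in YAP1-MAML2-v2 replicate 4 to 8.40 in replicate 5. The value of replicate 5 rests on a deposited CCNE2 value of 10. CCNA2, the cyclin of S phase and G2, was at 20.1 CPM in YAP1-MAML2-v2 replicate 2 and at 0.989 to 7.60 CPM in the other libraries.

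The first comparison asked whether the tumors of the 2 constructs differed. No member passed in edgeR's quasi-likelihood test with Benjamini-Hochberg adjustment over all genes, and 2 of 13707 genes (0.0146%) did. DESeq2 also called 0 members, against 5.0% of all genes tested. At an unadjusted p under 0.05 there was 1 member, RRM2, where the background was 13.1%. Log2 fold changes, NLS-2SA-YAP1 minus YAP1-MAML2-v2, were above 0 for 24 members and below 0 for 15, against 48.4% above 0 over all genes. Their median was 0.13, against -0.03 over all genes tested. No member had groups that did not overlap, against 3.71% of all genes with NLS-2SA-YAP1 higher and 3.03% with it lower. In simulated counts for this comparison (13568 genes), edgeR called 0% of genes changed 2-fold, 40% at 4-fold and 64% at 8-fold. This test would thus mostly miss a 2-fold difference.

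RRM2 was at 5.48 ± 5.43 CPM (SD, n = 7) in the YAP1-MAML2-v2 tumors and 19.3 ± 4.0 CPM (SD, n = 3) in the NLS-2SA-YAP1 tumors. Its log2 fold change was 1.89 (SE 0.82), with an edgeR adjusted p of 0.365, and it was above 0 without each library in turn. RFC2 followed at 0.44 (SE 0.34), GINS1 at 1.15 (SE 0.94) and FEN1 at 0.51 (SE 0.47), and their adjusted p-values by edgeR were 0.624, 0.658 and 0.698. CDT1 had the lowest value of the 39, at -1.20 (SE 1.04), and its edgeR adjusted p was 0.712. The remaining genes fixed for printing gave values within their error. In licensing and activation these were MCM2 at 0.22 (SE 0.65), MCM5 at -0.05 (SE 0.46), CDC6 at -0.14 (SE 0.73), ORC1 at -0.38 (SE 0.94), CDC45 at 0.45 (SE 0.99) and GINS2 at 0.43 (SE 1.04). Downstream they were POLA1 at 0.48 (SE 0.61), PCNA at -0.49 (SE 0.66), TYMS at 0.60 (SE 0.68), E2F1 at 0.50 (SE 0.61), CCNE1 at 0.48 (SE 0.65) and UHRF1, whose value rounded to 0.00 (SE 0.98). Single tumors moved the balance of signs: 31 members were above 0 without YAP1-MAML2-v2 replicate 2, 32 without NLS-2SA-YAP1 replicate 1 and 14 without NLS-2SA-YAP1 replicate 2. Markers of skeletal muscle summed to 1.57 to 58.8 CPM in the YAP1-MAML2-v2 tumors and to 6.92, 78.1 and 282 CPM in the others. With the mean log2 CPM of these markers as a covariate 19 members were above 0.

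The second comparison asked whether the extra axial tumors differed from the extra cranial ones. No member passed, nor did any of the 13707 genes (0.0%) in edgeR's test. At an unadjusted p under 0.05 there were 0 members and 3.01% of all genes. DESeq2 called 0 members and 0.226% of all genes. All 39 log2 fold changes, extra axial minus extra cranial, were above 0, with a median of 0.66, while 49.4% of all genes tested were above 0 and their median was -0.01. No member had groups that did not overlap, against 0.387% of genes higher and 0.503% lower. In simulated counts for regions (13574 genes), edgeR called 2% of genes changed 2-fold, 30% at 4-fold and 56% at 8-fold. The common sign rested on 1 tumor. Without YAP1-MAML2-v2 replicate 2, 13 of 39 members were above 0, against 47.8% of all genes, and the median was -0.21. Of the skeletal muscle markers, all 9 tested were below 0, with a median of -3.54. Their list summed to 1.57 to 6.92 CPM in the extra axial and 1.61 to 282 CPM in the extra cranial tumors. Only some extra cranial tumors were high: YAP1-MAML2-v2 replicate 3 at 58.8 CPM and NLS-2SA-YAP1 replicates 2 and 3 at 78.1 and 282 CPM. YAP1-MAML2-v2 replicates 1, 4 and 5 were at 1.61, 3.72 and 2.8 CPM, inside the extra axial range. Between constructs the same 9 markers were all above 0, with a median of 2.21. With the mean log2 CPM of that list as a covariate 37 members were above 0, with a median of 0.69.

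MCM10 had the smallest p of the members, at a log2 fold change of 1.89 (SE 1.05), for which edgeR gave an adjusted p of 1. It was at 8.28, 1.6 and 4.31 CPM in the extra axial tumors and ran from 0.066 through a median of 1.19 to 4.17 CPM in the 6 extra cranial tumors. Without YAP1-MAML2-v2 replicate 2 its value was 0.73. FEN1 was at 32.5, 15.4 and 14.4 CPM in the extra axial tumors and from 6.60 through 10.6 to 21.6 CPM in the extra cranial tumors, with a log2 fold change of 0.85 (SE 0.47). CCNE1 gave 1.16 (SE 0.65), and its extra axial tumors, at 9.75, 5.37 and 4.67 CPM, overlapped the extra cranial range of 1.53 to 5.15 CPM. MCM2 gave 1.13 (SE 0.65), but -0.14 without YAP1-MAML2-v2 replicate 2, since the other extra axial tumors, at 12.1 and 12.7 CPM, sat near the extra cranial median of 12.4 CPM. UHRF1 went from 1.28 (SE 0.98) to -0.58 and CDT1 from 0.66 (SE 1.04) to -0.97 when that tumor was left out. CDC45 stayed above 0, at 1.69 (SE 0.99) and 0.27. The smaller values were CDC6 at 0.85 (SE 0.73), ORC1 at 0.40 (SE 0.94), MCM5 at 0.39 (SE 0.46), GINS2 at 0.73 (SE 1.03), POLA1 at 0.30 (SE 0.61), PCNA at 0.53 (SE 0.66), TYMS at 0.35 (SE 0.68), RRM2 at 0.88 (SE 0.82) and E2F1 at 0.10 (SE 0.61). Of these, all 9 were below 0 without that tumor.

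**Figure D5:**
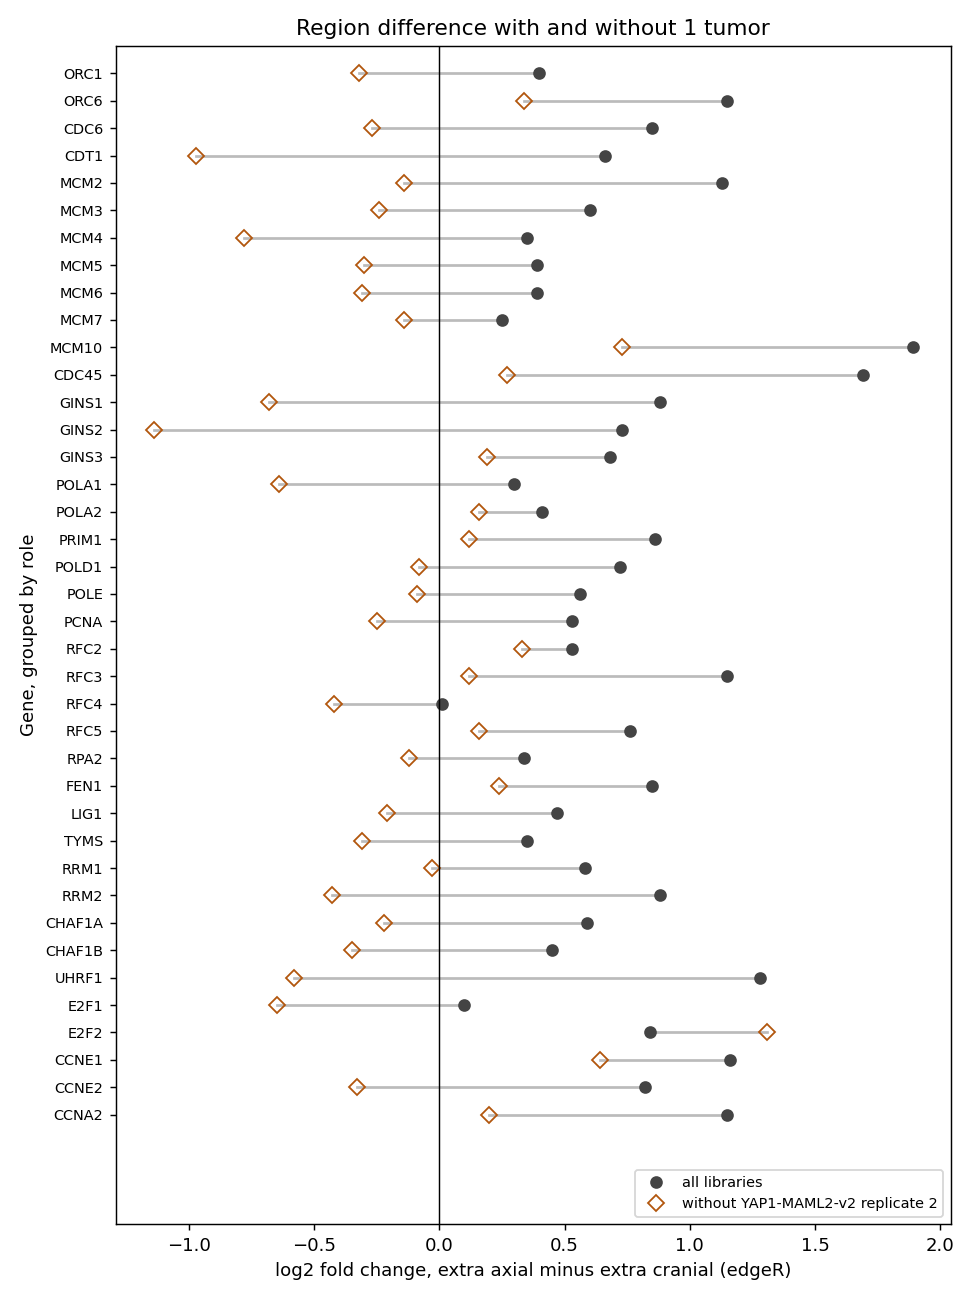
For each gene the filled circle is the log2 fold change between extra axial and extra cranial tumors over all libraries, and the open diamond is the value without YAP1-MAML2-v2 replicate 2. All 39 circles lie above 0 and 13 diamonds do, and E2F2 is the member whose diamond lies to the right of its circle.

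Within the YAP1-MAML2-v2 tumors alone, the 2 extra axial libraries against the 4 extra cranial ones, 35 members were tested and all 35 were above 0, with a median of 1.07, against 47.5% of all genes. At an unadjusted p under 0.05 there were 5 of these members (background 3.20%), and none passed after adjustment. This comparison shares its tumors with the one above, and 1 of its 2 extra axial libraries is YAP1-MAML2-v2 replicate 2. The other, replicate 6, had 18 of 39 members above their mean log2 CPM over the 10 libraries. Extra cranial replicates 1 and 4 of this construct each had 27, and replicates 3 and 5 each had 1. The interaction asked whether the region difference itself differed between constructs, with a single extra axial NLS-2SA-YAP1 tumor on 1 side. No member passed in edgeR's test, against 0.00741% of 13487 genes, and DESeq2 called 0 members, against 1.51%. At an unadjusted p under 0.05 there were 3 members, MCM4 at -2.95 (SE 1.02), LIG1 at -1.89 (SE 0.76) and POLD1 at -2.08 (SE 0.84), where the background was 7.14%. POLA1 followed at -2.59 (SE 1.08). The edgeR adjusted p-values of these 4 genes were 0.662, 0.681, 0.681 and 0.692. The interaction was below 0 for 38 of 39 members, against 51.2% of all genes, and for 31 without YAP1-MAML2-v2 replicate 2.

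The second list held 59 other replication genes, all tested. None passed in either comparison in edgeR's test. At an unadjusted p under 0.05 there were 5 of 59 between constructs, where the background was 13.1%, and 2 of 59 between regions, where it was 3.01%. Between constructs 29 were above 0 and 30 below, with a median of -0.03, and between regions 52 were above 0 with a median of 0.49, but 25 of 59 without YAP1-MAML2-v2 replicate 2, with a median of -0.03. DESeq2 called 2 of 59 between constructs, RRM2B and RFC1, where it called 5.0% of all genes. RRM2B, the small reductase subunit that serves cells outside S phase, was at 65.6 to 194 CPM in the YAP1-MAML2-v2 tumors and read 26.5, 24.7 and 32.6 CPM over the NLS-2SA-YAP1 tumors. The groups did not overlap, as for 3.03% of all genes in this direction, the log2 fold change was -1.87 (SE 0.39) and the edgeR adjusted p was 0.161. It thus lay on the other side of 0 from RRM2, the S phase subunit. RFC1, the large subunit of the clamp loader, gave -0.95 (SE 0.29) and E2F6 0.93 (SE 0.33), for adjusted p-values by edgeR of 0.268 and 0.290. Between regions DBF4, which activates the CDC7 kinase at origins, gave 1.39 (SE 0.57) and GINS4 1.52 (SE 0.68), both with an edgeR adjusted p of 1. GMNN, the inhibitor of CDT1, was at 21.7 CPM in YAP1-MAML2-v2 replicate 2 and at 1.92 to 12.1 CPM in the other libraries. TK1, which salvages thymidine, gave 1.67 (SE 0.91) between constructs, with an edgeR adjusted p of 0.478. DNMT1, which UHRF1 recruits, was at 192 CPM in YAP1-MAML2-v2 replicate 2 and at 30.9 to 75.6 CPM elsewhere.

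Among the 20 G2 and mitosis genes, none passed either. Between constructs 16 were above 0, with a median of 0.40. Between regions all 20 were above 0, with a median of 1.61, against 49.4% of all genes above 0, and 5 of 20 had an unadjusted p under 0.05, against 3.01%. Without YAP1-MAML2-v2 replicate 2, 19 of 20 were above 0, the median was 0.64 and 0 had an unadjusted p under 0.05. MKI67, the proliferation antigen, was at 110, 53.3 and 20.2 CPM in the extra axial tumors and at 5.08 to 44.9 CPM in the extra cranial ones. Its log2 fold change between regions was 1.6 (SE 0.66) with an edgeR adjusted p of 1. TOP2A, which untangles replicated DNA, was at 207 CPM in YAP1-MAML2-v2 replicate 2, at 1.75 CPM in replicate 5 and at 6.99 CPM in replicate 7. The other libraries were at 35.8 to 69.7 CPM.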

How the data were processed

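RNA was measured in 10 tumor libraries, and group, replicate and region came from the labels. Per the labels' protocols, libraries were made with a stranded mRNA kit from frozen, ground tumors. Per the submitters' processing notes, HTSeq and mm10 were used. The deposited values are whole numbers that were treated as estimated counts, because the number of genes at 1 is 4.54 to 6.82 times the number at 2. The step behind this, the aligner and the strand setting are not stated, and the depth is unknown, so no counting intervals are given. The design had assumed whole-number counts or estimated counts, and no further rounding was needed.

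The members and lists were chosen with earlier results of these data known. The low-value filter was filterByExpr, grouped by construct, with a minimum count of 10, and it kept 13707 genes. The main fit was edgeR 4.0.16 (R 4.3.3), a robust quasi-likelihood test on TMM-scaled values with construct and region as terms. A term of its own fits the intra ventricular library exactly. The interaction was fitted to the extra cranial and extra axial libraries. Adjustment was by Benjamini-Hochberg over the whole table, with a threshold of 0.05. Standard errors are Wald errors from the same fit. Log2 CPM used a prior count of 2. DESeq2 1.42.0 and limma 3.58.1, other scalings and filters, a muscle covariate, and leaving out each library were alternatives. The steps were tested on simulated counts.

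Fold changes and tests are printed for 14 fixed members and for the 4 members of smallest p per comparison. For the other lists, 8 fixed genes and up to 4 of smallest p may be named. RB and CDK inhibitor genes formed a list of their own. Marker lists covered meningeal fibroblast and arachnoid, skeletal muscle, neuron, neural progenitor, macrophage and microglia, lymphocyte, endothelium and erythroid genes. The sums over the libraries were, for neurons, 387 to 1080 CPM, for neural progenitors 1.50 to 66.6 CPM (highest in the intra ventricular tumor), for endothelium 92.1 to 623 CPM and for erythroid cells 0.0759 to 2.39 CPM. Lengths are of the longest APPRIS principal transcript in GENCODE M21. Promoters are RefSeq windows on GRCm38.p6.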

Additional observations from a re-analysis of the deposited data

Results flagged for a closer look

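The log2 CPM of each member, and its median over the members, were examined for a sample far from the others in the YAP1-MAML2-v2 tumors (n = 7) and in the extra cranial tumors (n = 6), the groups large enough for Dixon's gap test. Of 80 groups of values 5 stood out, and chance alone flags about 1 in 20 groups. YAP1-MAML2-v2 replicate 5 was far below the other extra cranial tumors for CDC6 (0.80), GINS2 (-1.65) and CCNE2 (-1.38), all in log2 CPM. YAP1-MAML2-v2 replicate 3 was far below them for POLA2 (3.16). YAP1-MAML2-v2 replicate 2 was far above the other tumors of its construct for MCM3 (7.29). Replicates 2 and 5 are also the ends of the order by median member level, which rests on the same values and is no separate evidence.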

How the results depend on the processing

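No member passed the threshold under any alternative run for either comparison or the interaction, so none of these comparisons gives a call that could be lost. The depth is unknown and the extra axial NLS-2SA-YAP1 group is 1 library, which limits the precision. The count over all genes did depend on the tool and the setting. Of the settings, the replicate block used only 6 libraries. With terms for replicate, construct and region, that left little to estimate the spread from. Between constructs the count was 2 with edgeR, 685 with DESeq2, 95 with limma-voom weights, 36 with the replicate block and 0 with a muscle covariate. Between regions it was 0 with edgeR, 31 with DESeq2 and 6 with the replicate block, and for the interaction 1 with edgeR and 204 with DESeq2. DESeq2 called 2 genes of the other replication list between constructs, where edgeR called 0. The causes were not tested. The counts of members above or below 0 under the alternatives, the interaction without each of 8 libraries, and the lists without YAP1-MAML2-v2 replicate 2 were added after seeing the data. The order of the libraries by median member level was the same with a prior count of 0.5.

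Leaving out each library in turn (for the interaction, each of 8), the members called ranged from 0 to 0 in both comparisons and the interaction. Called genes of the other replication list also ranged from 0 to 0 in both comparisons. Members above 0 ranged from 14 to 32 between constructs and from 13 to 39 between regions, and members below 0 for the interaction from 31 to 38. The median log2 fold change of the members ranged from -0.16 to 0.60 between constructs and from -0.21 to 1.07 between regions. Between constructs the ranges of log2 fold changes were MCM2 -0.29 to 0.82, MCM5 -0.27 to 0.39, CDC6 -0.41 to 0.45, CDT1 -1.56 to -0.56, ORC1 -1.08 to 0.08, CDC45 -0.03 to 1.23, GINS2 0.04 to 1.14, POLA1 -0.09 to 1.14, PCNA -0.81 to -0.10, TYMS 0.20 to 1.14, RRM2 1.54 to 2.50, UHRF1 -0.45 to 0.74, E2F1 0.21 to 0.90, CCNE1 0.22 to 0.94, RFC2 0.26 to 0.57, GINS1 0.55 to 1.77 and FEN1 0.19 to 1.00. Between regions they were MCM2 -0.14 to 1.74, MCM5 -0.30 to 0.83, CDC6 -0.27 to 1.44, CDT1 -0.97 to 1.30, ORC1 -0.32 to 0.85, CDC45 0.27 to 2.47, GINS2 -1.14 to 1.45, POLA1 -0.64 to 0.96, PCNA -0.25 to 0.88, TYMS -0.31 to 0.90, RRM2 -0.43 to 1.31, UHRF1 -0.58 to 2.02, E2F1 -0.65 to 0.49, CCNE1 0.64 to 1.61, MCM10 0.73 to 2.35 and FEN1 0.24 to 1.33. For the interaction they were MCM4 -3.55 to -1.75, LIG1 -2.33 to -1.11, POLD1 -2.58 to -1.18 and POLA1 -3.14 to -1.58.

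Several values, none past the threshold, changed sign with the setting. Between constructs, without TMM scaling MCM5 was 0.01 and UHRF1 0.06. With limma on log2 CPM UHRF1 was 0.30, with limma-voom weights MCM5 was 0.12, CDC6 0.07 and UHRF1 0.40, and without genes at 0 or 1 and over 100 UHRF1 was 0.01. With the muscle covariate ORC1 was 0.36, CDC45 -0.18, GINS2 -0.47, POLA1 -0.48, UHRF1 0.09 and CCNE1 -0.06. Without the region term MCM2 was -0.05 and CDC45 -0.16, and in extra cranial libraries alone MCM5 was 0.39, CDC6 0.45, ORC1 0.07 and UHRF1 0.74. Between regions, limma-voom weights gave CDT1 -0.12, GINS2 -0.25, POLA1 -0.17 and E2F1 -0.31, the muscle covariate gave E2F1 -0.07, and E2F1 was -0.01 without the construct term. 

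Replicates 1 to 3 share a number across constructs. The correlations of same-numbered libraries' deviations were 0.167, 0.337 and -0.072. NLS-2SA-YAP1 replicate 2 correlated best with its same-numbered library. NLS-2SA-YAP1 replicates 1 and 3 correlated best with YAP1-MAML2-v2 replicates 7 (0.275) and 5 (0.246). Whether the numbers pair the samples cannot be told from these values. A fit with the replicate block used those 6 libraries. Between constructs the block left 15 members above 0 and gave MCM2 -0.39, CDC45 -0.46, GINS2 -0.03 and POLA1 -0.02. The block without the region term left 15 above 0 and gave MCM2 -0.39, CDC45 -0.42, GINS2 -0.01 and POLA1 -0.02. Between regions the block gave CDT1 -0.20, ORC1 -0.41 and E2F1 -0.20.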

Other observations

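The genes that restrain or release E2F formed a list of 19 RB, cyclin D, CDK inhibitor and related genes, and none of them passed in edgeR's test between constructs or between regions. Between constructs 8 were above 0 and 11 below, and 7 of 19 had an unadjusted p under 0.05, where 48.4% of all genes were above 0 and 13.1% had such a p. CCND1, the D-type cyclin that activates CDK4 and CDK6, read 1590, 2240 and 1590 CPM over the NLS-2SA-YAP1 tumors and 260 to 868 CPM over the YAP1-MAML2-v2 tumors. Its log2 fold change was 1.87 (SE 0.46) and its adjusted p by edgeR 0.175. CDK6, its partner kinase, went the other way, at 3.37, 11 and 12.7 CPM against 21 to 101 CPM, with -2.91 (SE 0.54) and an edgeR adjusted p of 0.161. Neither gene's groups overlapped, as for 3.71% of all genes with NLS-2SA-YAP1 higher and 3.03% with it lower. MYC gave -1.70 (SE 0.55) and RB1 -1.20 (SE 0.44), for adjusted p-values by edgeR of 0.305 and 0.330.

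RB1, which holds E2F in check, was at 72.9, 39.3 and 48.6 CPM in the extra axial tumors and at 42.0 to 291 CPM in the extra cranial tumors. Its log2 fold change between regions was -1.47 (SE 0.44), with an edgeR adjusted p of 1. CDKN1A, a CDK inhibitor, was at 428 CPM in NLS-2SA-YAP1 replicate 1, at 171 and 90.9 CPM in the other NLS-2SA-YAP1 tumors and at 48.4 to 173 CPM in the YAP1-MAML2-v2 tumors. Its interaction of construct and region was 3.10 (SE 0.65), with an edgeR adjusted p of 0.594.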
